A study of Mus musculus with 9 samples.

Results

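Folate carries single carbon units between enzymes, and the enzymes that load, oxidise and unload those units were measured here in the proximal colon of mice with different Shmt1 genotypes. Shmt1 encodes the serine hydroxymethyltransferase of the cytosol, cSHMT. Of 8 genes listed (Mthfd1, Mthfd2, Mtrr, Aldh1l1, Gart, Atic, Gcsh and Dld), 7 had at least 1 probe set annotated with their symbol alone, which gave 13 of the 22690 probe sets in the table. A probe set is a group of short array sequences that together give 1 signal. Atic, which closes the purine ring with a folate-borne formyl unit, had 0 probe sets under its symbol in the annotation used and is not analysed here. The genes lie on mouse chromosomes 12 (Mthfd1 and Dld), 6 (Mthfd2 and Aldh1l1), 13 (Mtrr), 16 (Gart) and 8 (Gcsh) in assembly GRCm38.p6.

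The groups were 3 cSHMT mutant, 3 cSHMT heterozygous and 3 wild-type mice, called biological replicates in the labels, with 1 Affymetrix array per colon. All 9 mice were of the C57Bl/6 strain after 10 generations of backcrossing, were 9 weeks old, and had been fed a diet without folate and choline since weaning at 3 weeks, so no colon on a folate-replete diet was compared. The time on the diet is 6 weeks in one label and 5 weeks in another. The labels do not say how the Shmt1 allele was made, and the sample is a piece of whole colon, in which fewer cells of a type and less RNA per cell cannot be told apart.

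Serine hydroxymethyltransferase moves a carbon unit from serine to tetrahydrofolate. The unit can then be oxidised to the formyl level for purine synthesis, used to make thymidylate, or reduced to a methyl group that remakes methionine. Mthfd1 interconverts these forms in the cytosol and Mthfd2 does so in mitochondria. Gart spends formyl units on purines, Aldh1l1 releases them as carbon dioxide, Mtrr keeps methionine synthase active, and Gcsh and Dld are parts of the mitochondrial glycine cleavage system, which also supplies carbon units to folate. The colon epithelium renews itself throughout life, and dividing cells draw on this pathway for DNA precursors.

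Of 8 markers of absorptive colon cells, Car1, a carbonic anhydrase of colon surface cells, read 4901 to 7366 and Cdx2, an intestinal transcription factor, read 4396 to 5270. Aqp8, a water channel on the same list, read 30.0 to 645.8. Of 4 small intestine markers, Lct and Apoa4 stayed at or below 44.6 and Apoa1 read 8.1 to 459.1, whereas Fabp6, an ileal bile acid carrier, read 1970 to 4190 in every array. The summed signal of 10 proliferation markers was 8708 to 10658 in mutant, 7725 to 9664 in heterozygous and 8620 to 8987 in wild-type colons. Mutant colon 1 had the lowest sum of 4 adipocyte markers, 2705, against 6046 to 8796 in the other 8 colons. Shmt1 itself followed the labels in the order of its means, but only probe set 1425177_at separated all 3 genotypes. On probe set 1425177_at it averaged 116.7 ± 3.46 in mutant, 303.1 ± 31.6 in heterozygous and 594.7 ± 43.2 in wild-type colons (SD, n = 3 each), with no overlap between genotypes and a limma adjusted p of 2.64e-05 for mutant against wild-type. On its brightest probe set, 1425179_at, the limma adjusted p for mutant against wild-type was 0.596 at a log2 fold change of -0.89. On 1425178_s_at it was 0.309 at -0.79. Deposited heterozygous and wild-type values overlapped on both, and the remaining probe set, 1422198_a_at, was too dim to be tested.

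No probe set of the 7 enzymes passed the test in any comparison of genotypes. Of the 13, 11 were bright enough to be tested, with a mean at or above the 40th percentile of all probe sets, a linear signal of 75.5. Calls were made at a Benjamini-Hochberg adjusted p of 0.05 in limma, a linear model that shares information on spread between probe sets. The count called was 0 of 11 for mutant against wild-type, where 0.0221% of the 13576 probe sets tested were called. It was 0 of 11 for heterozygous against wild-type, where 0.0% were called, and 0 of 11 for mutant against heterozygous, where 0.0221% were called. With so few calls on the whole array, the counts of 0 say little about these enzymes in particular. At an unadjusted p of 0.05 the counts were also 0 of 11 in each, beside 3.84% of all probe sets for mutant against wild-type, 8.01% for heterozygous against wild-type and 7.56% for mutant against heterozygous. The 2 untested probe sets were dim in every colon: Aldh1l1 1424401_at read 0.6 to 8.5 and Gart 1424435_a_at read 33.9 to 66.4.

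**Figure D1:**
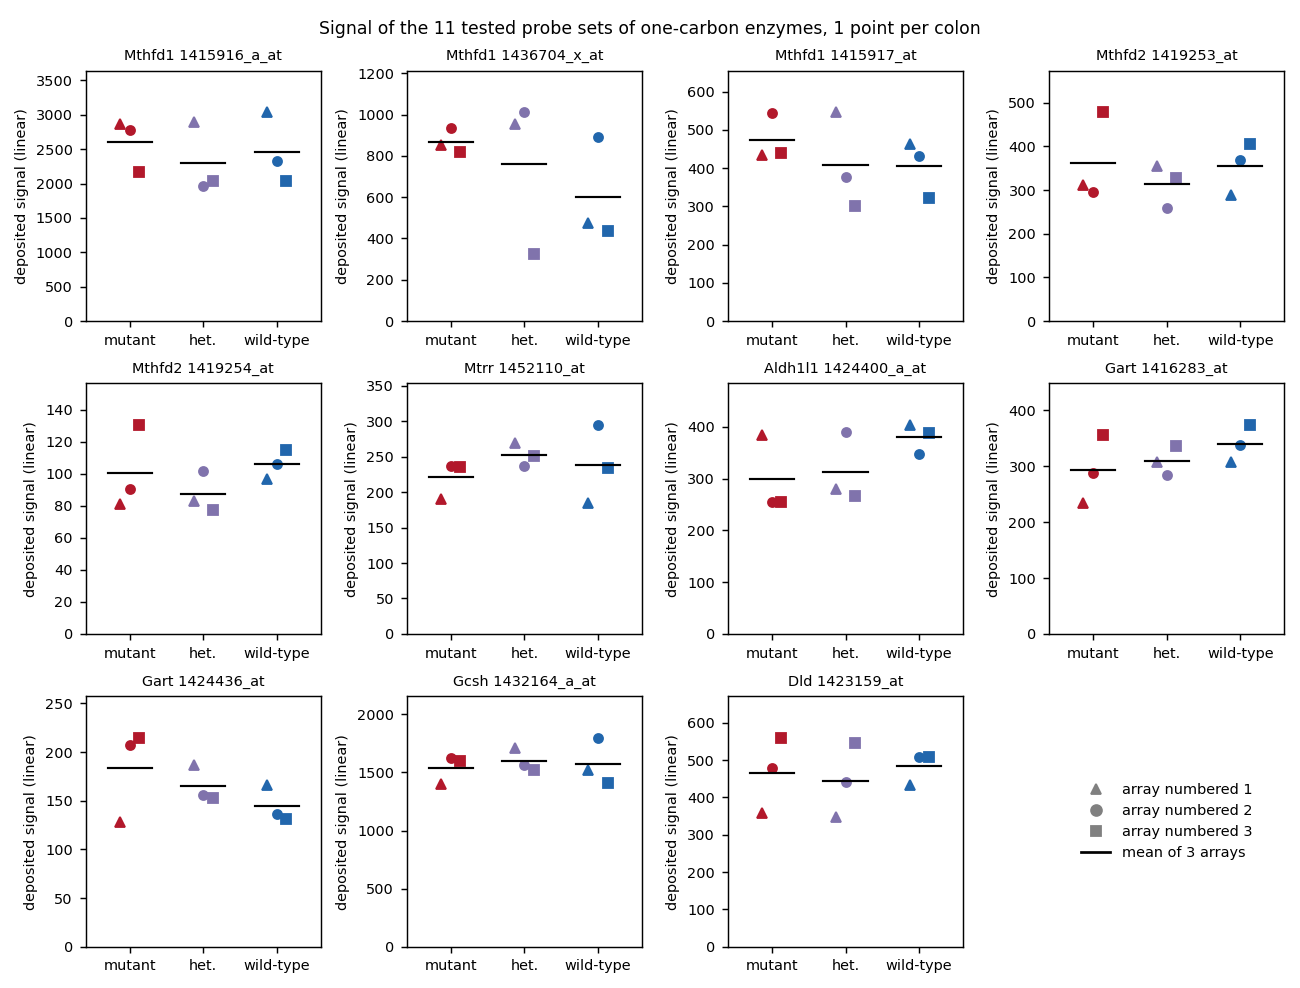
Deposited linear signal (vertical axes, from 0) of the 11 tested probe sets in mutant, heterozygous (het.) and wild-type colons; each point is 1 colon, its shape is the array number, and the bar is the mean of 3. The genotypes overlap in every panel, except that the mutant values of Mtrr (up to 236.6) lie just below its heterozygous ones (from 236.7), and Mthfd1 1436704_x_at has the widest scatter, from 323.8 to 1010.7.

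Mthfd1 encodes the cytosolic enzyme that interconverts the methylene, methenyl and formyl forms of tetrahydrofolate. Its brightest probe set, 1415916_a_at, read 2862.1, 2775.6 and 2169.0 in mutant colons, 2897.3, 1958.1 and 2033.1 in heterozygous colons, and 3035.4, 2326.7 and 2030.0 in wild-type colons. The ranges of the 3 genotypes overlapped almost fully. The log2 fold change was 0.10 for mutant against wild-type (SE 0.145, 95% interval -0.22 to 0.42) and -0.08 for heterozygous against wild-type (95% interval -0.40 to 0.23), with limma adjusted p of 0.998 and 0.909.

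The second Mthfd1 probe set, 1415917_at, read 435.4, 545.2 and 438.5 in mutant, 545.6, 375.8 and 299.8 in heterozygous and 462.8, 430.4 and 322.3 in wild-type colons. It also overlapped between genotypes, with a log2 fold change of 0.22 for mutant against wild-type (95% interval -0.32 to 0.76). Over the 9 colons it followed 1415916_a_at closely on the normalized log2 scale, with Pearson r = 0.92 (exact permutation p = 0.000816, Benjamini-Hochberg 0.00408 over 5 pairs of probe sets) and Spearman rho = 0.88 (exact permutation p = 0.00308). The correlation was 0.95 without the 2 colons farthest from the median of 1415916_a_at and 0.86 in the 6 arrays not numbered 1. Colons high on one of these Mthfd1 probe sets thus tended to be high on the other. The permutation treated the 9 arrays as exchangeable, although they differ in genotype and RNA quality. Other genes followed 1415916_a_at more closely, Umps at r = 0.979 and Dnajc30 at r = 0.976, so an r this high is not particular to Mthfd1.

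The remaining Mthfd1 probe set, 1436704_x_at, scattered most. It read 850.8, 935.2 and 818.6 in mutant colons, 954.2, 1010.7 and 323.8 in heterozygous colons, and 473.1, 889.9 and 437.7 in wild-type colons. The 3 mutants lay close together, while 1 heterozygous and 2 wild-type colons lay far below the rest. Its SD within genotypes was 0.633 on the log2 scale, at the 99.1 percentile of all probe sets tested, whose median was 0.173. The log2 fold change of 0.58 for mutant against wild-type was the highest of the 11, yet its 95% interval ran from -0.28 to 1.44, that is, from 0.824-fold to 2.71-fold. With array weights it was 0.12 (limma adjusted p = 0.889), below the 0.41 of Gart 1424436_at, and it was 0.35 without wild-type replicate 3 and 0.88 without wild-type replicate 2. Against this probe set, 1415916_a_at had r = 0.39 (exact permutation p = 0.294) and 1415917_at had r = 0.68 (exact permutation p = 0.0457, Benjamini-Hochberg 0.114). Without the 2 colons farthest from the median of 1415916_a_at, r with that probe set was 0.63. Without the 2 colons farthest from the median of 1436704_x_at itself, r with 1415917_at was -0.11, so this relation rests on a few colons. Different colons were left out for the 2 pairs, so 0.63 and -0.11 cannot be set against each other. In the 6 arrays not numbered 1, r was 0.43 with 1415916_a_at and 0.82 with 1415917_at. In Affymetrix names, an x marks probe sets in which some probes also match other sequences.

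Mthfd2 encodes the mitochondrial dehydrogenase and cyclohydrolase, known for its high level in embryonic and dividing cells. Its brighter probe set, 1419253_at, read 312.0, 295.4 and 478.2 in mutant, 354.6, 260.0 and 328.7 in heterozygous and 287.8, 368.8 and 406.3 in wild-type colons. Mutant colon 3 was the highest of the 9, and the other 2 mutants lay among the lower values. The log2 fold change was 0.01 for mutant against wild-type (SE 0.182) and -0.17 for heterozygous against wild-type (SE 0.182), with intervals of -0.39 to 0.41 and -0.57 to 0.24.

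The dimmer Mthfd2 probe set, 1419254_at, read 80.9, 90.6 and 130.4 in mutant, 82.8, 101.5 and 77.2 in heterozygous and 97.0, 105.9 and 114.8 in wild-type colons. On the deposited scale the heterozygous and wild-type values overlapped, but after normalization the 3 heterozygous values lay below the 3 wild-type ones. It was the 1 of 11 tested probe sets with no overlap for heterozygous against wild-type, where 14.7% of all probe sets had none. For mutant against wild-type and mutant against heterozygous the count was 0 of 11, beside 8.42% and 12.4%. Its log2 fold change of -0.27 for heterozygous against wild-type had a 95% interval of -0.62 to 0.07 and a limma adjusted p of 0.69. The brighter Mthfd2 probe set correlated with it at r = 0.42 (exact permutation p = 0.258).

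Aldh1l1 encodes the cytosolic formyltetrahydrofolate dehydrogenase, which removes carbon units from the folate pool. Probe set 1424400_a_at read 384.7, 255.8 and 255.7 in mutant colons, 280.6, 390.3 and 266.9 in heterozygous colons, and 403.4, 348.7 and 387.8 in wild-type colons. In both mutant and heterozygous groups, 2 of 3 colons lay below every wild-type colon and 1 lay among them. The mean was 298.7 ± 74.4 in mutant, 312.6 ± 67.6 in heterozygous and 380.0 ± 28.2 in wild-type colons (SD, n = 3 each). The log2 fold changes of -0.36 (95% interval -0.84 to 0.12) for mutant and -0.30 (-0.78 to 0.19) for heterozygous share the wild-type arrays and did not pass, with limma adjusted p of 0.998 and 0.748.

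Markers of T cells also varied widely between colons. The summed signal of 6 of 7 listed T cell markers was 1761, 766 and 463 in mutant, 435, 1655 and 936 in heterozygous and 1962, 1340 and 807 in wild-type colons. In each genotype the colon with the highest Aldh1l1 signal also had the highest T cell sum. The order of the other colons differed in the heterozygous and wild-type groups. Other marker lists were summed too, and none of those had its highest sum in the same colon as Aldh1l1 in every genotype. The macrophage sum, for example, was highest among heterozygous colons in colon 3, at 8420. Cd3e, a chain of the T cell receptor complex, read 186.2 to 1329.2. Only 3 of the 6 markers were bright enough to be tested, and Cd4, which was not, read 25.4 to 53.0. The part of T cells in the Aldh1l1 values was not tested.

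Gart encodes a trifunctional enzyme of purine synthesis, one activity of which takes a formyl unit from folate. The gene is also known to give a shorter transcript that ends in an intron, and which transcript each probe set reads is not given in the sources used here. Probe set 1416283_at read 234.2, 287.4 and 356.4 in mutant, 308.6, 284.3 and 337.3 in heterozygous and 308.3, 339.1 and 373.6 in wild-type colons. Probe set 1424436_at read 128.1, 206.9 and 214.3 in mutant, 187.1, 155.6 and 152.4 in heterozygous and 166.5, 136.8 and 131.6 in wild-type colons. The first thus had its lowest mean in mutants and the second its highest, with overlapping values in both.

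The log2 fold change for mutant against wild-type was -0.21 on Gart 1416283_at (95% interval -0.50 to 0.08) and 0.30 on 1424436_at (95% interval -0.14 to 0.74). Over the 9 colons the pair had r = -0.0 (exact permutation p = 0.993). The log2 difference of 1424436_at minus 1416283_at was -0.78, -0.42 and -0.72 in mutant, -0.68, -0.82 and -1.11 in heterozygous and -0.80, -1.22 and -1.42 in wild-type colons. All 3 mutants lay above all 3 wild-type colons, by 0.51 on average. The two-sided exact permutation p was 0.1, the smallest that 3 against 3 can give, and 0.955 after Benjamini-Hochberg adjustment over 15 such differences. This comparison was chosen after the values were seen.

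**Figure D2:**
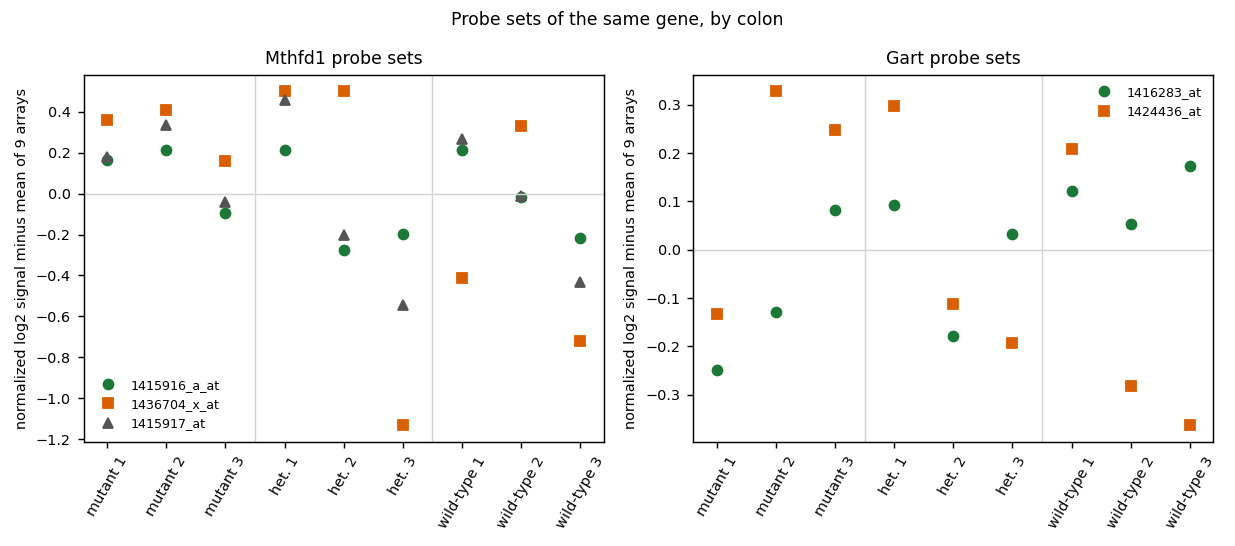
Normalized log2 signal minus the mean of the 9 arrays (vertical axis) for the probe sets of Mthfd1 and of Gart, 1 column per colon. The Mthfd1 probe sets 1415916_a_at and 1415917_at have r = 0.92, 1436704_x_at has r = 0.39 with the first and 0.68 with the second of them, and the Gart pair has r = -0.0.

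Mtrr encodes methionine synthase reductase, which restores the cobalamin cofactor of the enzyme that consumes methyltetrahydrofolate. It read 190.9, 236.6 and 235.7 in mutant, 269.6, 236.7 and 251.2 in heterozygous and 185.3, 294.5 and 234.2 in wild-type colons. Wild-type colons held both the lowest and the highest value. The highest mutant and the lowest heterozygous colon were 236.6 and 236.7, so these groups just missed overlapping as deposited, and they overlapped after normalization. The log2 fold change was -0.09 for mutant against wild-type (95% interval -0.42 to 0.24) and 0.07 for heterozygous against wild-type (95% interval -0.25 to 0.40).

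Gcsh, the lipoyl carrier protein of glycine cleavage, was among the steadiest of the probe sets. It read 1399.0, 1620.7 and 1595.9 in mutant, 1707.2, 1561.5 and 1521.5 in heterozygous and 1521.0, 1795.1 and 1408.6 in wild-type colons, and its highest value was 1.28 times its lowest. Its SD within genotypes was 0.128 on the log2 scale, at the 28.1 percentile of all tested. The 95% interval for mutant against wild-type, 0.829-fold to 1.15-fold, was the narrowest of the 11 in that comparison.

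Dld, the dihydrolipoamide dehydrogenase that glycine cleavage shares with the pyruvate, oxoglutarate and branched-chain keto acid dehydrogenase complexes, read 359.5, 478.7 and 559.0 in mutant colons. It read 346.9, 441.7 and 545.7 in heterozygous and 433.1, 508.3 and 508.3 in wild-type colons. Within mutants and within heterozygous colons the values rose in the order of the array numbers, and this spread was wider than any difference between means. The part of RNA quality in this order was not tested. The log2 fold change for mutant against wild-type was -0.07 (95% interval -0.39 to 0.26).

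All 33 intervals, for 11 probe sets in 3 comparisons, held 0. In each comparison 10 of 11 lay within 2-fold either way, the exception being Mthfd1 1436704_x_at. Within 1.5-fold lay 7 for mutant against wild-type, 7 for heterozygous against wild-type and 8 for mutant against heterozygous. Larger changes than these limits are thus outside the unadjusted intervals of most probe sets, whereas smaller ones could not be resolved with 3 colons per genotype. The median log2 fold change of the 11 was -0.03 for mutant against wild-type, with 5 of 11 above 0, beside a median of 0.00364 over all probe sets tested. For heterozygous against wild-type it was -0.08, with 4 of 11 above 0, beside -0.00441. For mutant against heterozygous it was 0.15, with 7 of 11 above 0, beside 0.00129. These medians count every probe set of a gene. Over the brightest probe set of each gene they were -0.07, -0.13 and -0.05 in the same order, so the sign of the last one depends on this choice.

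**Figure D3:**
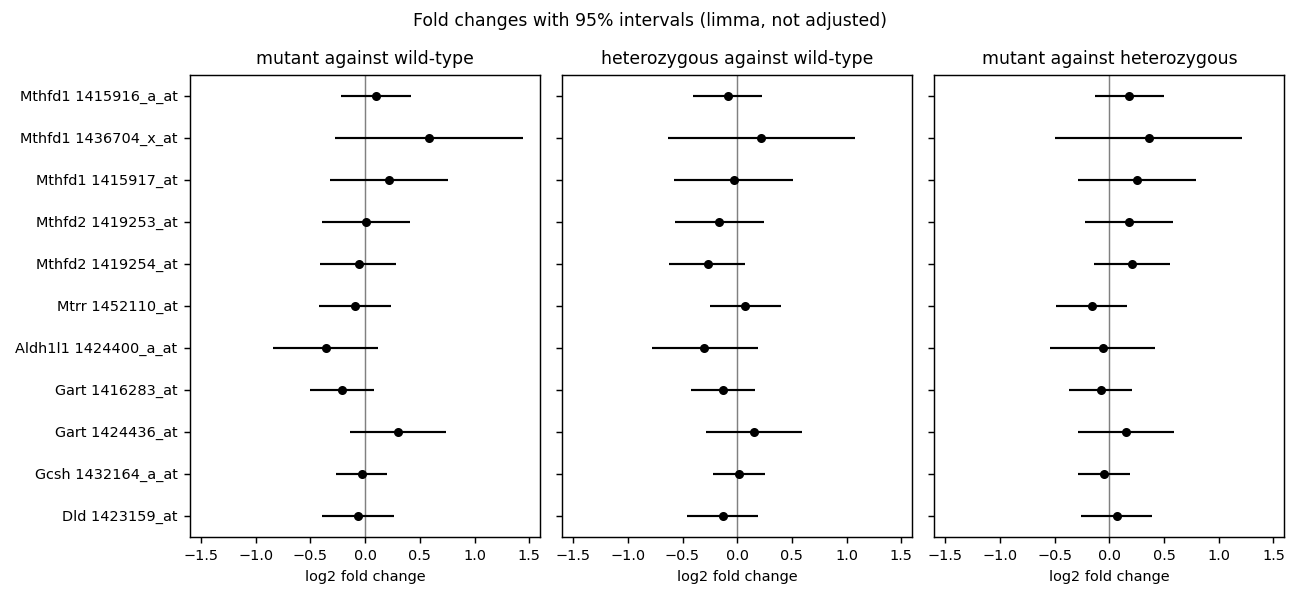
Log2 fold change (points) with its unadjusted 95% interval from limma (lines) for the 11 tested probe sets, for mutant against wild-type, heterozygous against wild-type and mutant against heterozygous colons. All 33 lines cross 0, and only those of Mthfd1 1436704_x_at reach past 2-fold (1 on the log2 axis).

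The array numbered 1 in each genotype had a higher beta-actin ratio than the other arrays. This ratio, the signal at the 3' end over that at the 5' end, rises as RNA is shortened. It was 4.84 in mutant, 4.45 in heterozygous and 5.02 in wild-type colons, against 2.52 to 3.75 in the other 6 arrays. From array 2 to array 3 it fell further, from 3.75 to 2.73 in mutant, 3.05 to 2.57 in heterozygous and 3.15 to 2.52 in wild-type colons. Leaving out the arrays numbered 1 therefore does not remove this order. The same ratio for Gapdh did not separate them, at 2.26, 2.18 and 2.90 in mutant, heterozygous and wild-type arrays numbered 1 and 2.26 in mutant array 2. Summed deposited signals of 5 goblet markers were 36056 to 40878 in arrays numbered 1, against 28086 to 31933 in the others, and those of 8 absorptive colonocyte markers were 31995 to 34834, against 26544 to 29138. Their part in the differences below was not tested. With genotype in the fit, Mthfd1 1415916_a_at was 0.29 higher (SE 0.0899) and 1415917_at 0.45 higher (SE 0.168) on the log2 scale in arrays numbered 1, and Aldh1l1 1424400_a_at was 0.36 higher (SE 0.159). These 3 of 11 had an unadjusted limma p below 0.05, beside 18.9% of all probe sets, and after adjustment 0 of 11 passed, beside 0.0%. None of the 3 was highest in array 1 of every genotype. On the normalized log2 scale Aldh1l1 was 8.32 in heterozygous array 1, between 8.06 and 8.61 in the other heterozygous arrays. On both Mthfd1 probe sets mutant array 1 lay between the other mutant arrays. Dld was -0.23 in the same contrast (SE 0.106, adjusted p = 0.276). A count of 3 among 11 is close to that share and is not a result about these enzymes. Without these 3 arrays the mutant against wild-type log2 fold change was 0.61 for Gart 1424436_at (limma adjusted p = 0.512) and -0.49 for Aldh1l1 (limma adjusted p = 0.972). This contrast was added after the data were seen.

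The 2 genes most like each enzyme over the 9 colons were read from the correlation of normalized log2 values over all probe sets tested. They are the highest correlations among 13576 probe sets, over 9 points that share normalization and RNA quality, so they are given as a description. Dld was followed most closely, by Ptcd3, a mitochondrial ribosome-associated protein (r = 0.994), and by Ddx1, an RNA helicase (r = 0.942). Mthfd1 was followed by Umps, the enzyme that makes uridine monophosphate (r = 0.979), and Dnajc30 (r = 0.976). Gcsh was followed by Lce3c (r = 0.964) and Atraid (r = 0.955), Gart by Pxk (r = 0.934) and Hnrnpab (r = 0.919), Mtrr by Slc41a2 (r = 0.919) and Ap3d1 (r = 0.868), and Mthfd2 by Manf (r = 0.890) and Wdhd1 (r = 0.888).

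Aldh1l1 was followed by Wdr81 (r = 0.962) and by Ifit2, an interferon-induced gene (r = 0.934). Ifit2 read 495.3, 117.2 and 149.4 in mutant, 128.0, 681.3 and 167.0 in heterozygous and 847.8, 404.1 and 442.3 in wild-type colons, a far wider range than that of Aldh1l1. Some likenesses depended on the normalization. On log2 of the deposited signals, r was 0.776 for Dld with Ddx1, 0.811 for Aldh1l1 with Wdr81 and 0.859 for Mthfd1 with Umps, whereas it was 0.997 for Dld with Ptcd3 and 0.965 for Aldh1l1 with Ifit2.

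**Figure D4:**
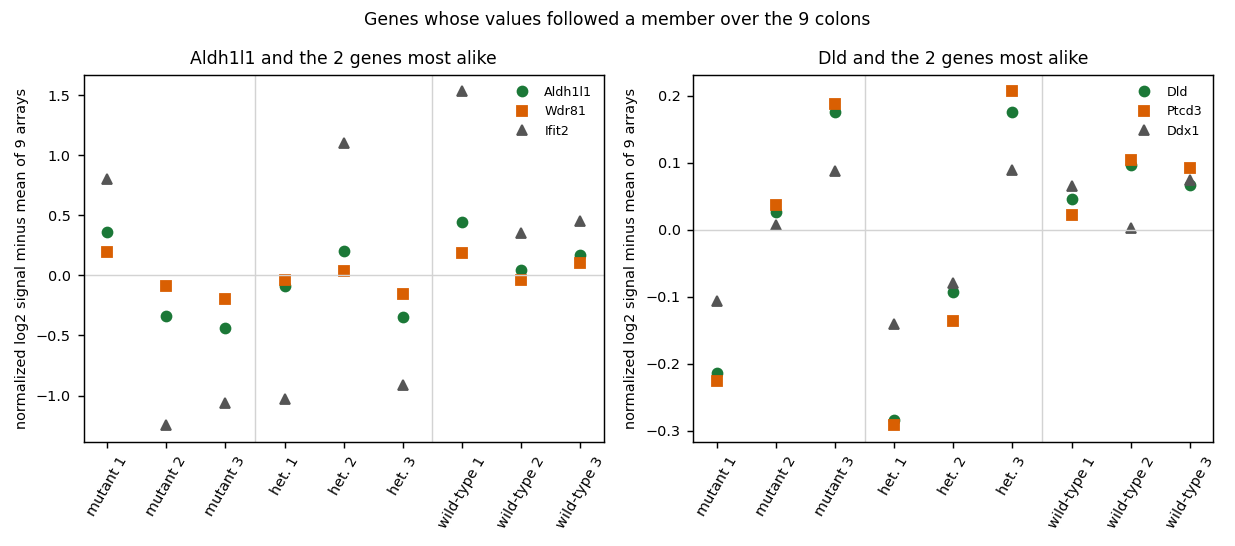
Normalized log2 signal minus the mean of the 9 arrays (vertical axis) for Aldh1l1 and Dld, each with the 2 genes most alike, 1 column per colon. Ptcd3 lies almost on Dld (r = 0.994), while Ifit2 lies on the same side of its mean as Aldh1l1 in all 9 colons, over a wider range (r = 0.934).

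The rest of the folate pathway was described on the brightest probe set of each gene. Of 24 other folate genes 15 were named on the array and 8 tested, and 0 were called in either direction in any comparison on these probe sets. The 8 include Shmt1 itself on its brightest probe set, 1425179_at, which had the smallest p of the list in each comparison. Their median log2 fold change was 0.08 for mutant against wild-type, 0.01 for heterozygous against wild-type and 0.03 for mutant against heterozygous. Ggh, which trims the glutamate tail of folates, averaged 1056 ± 103 in mutant, 840.7 ± 89.6 in heterozygous and 829.5 ± 112 in wild-type colons (SD, n = 3 each), with a log2 fold change of 0.32 for mutant against wild-type (limma adjusted p = 0.998). Slc46a1, the intestinal proton-coupled folate transporter, averaged 292.2 ± 32.5 in mutant, 219.8 ± 23.1 in heterozygous and 253.6 ± 59.6 in wild-type colons, and its log2 fold change for mutant against heterozygous was 0.41 (limma adjusted p = 0.695). Mitochondrial Shmt2 had a log2 fold change of 0.16 for heterozygous against wild-type (limma adjusted p = 0.883), and Mtfmt, which formylates the mitochondrial initiator tRNA, had -0.20 for mutant against wild-type (limma adjusted p = 0.998).

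Among the other enzymes of purine synthesis, which Gart serves, 8 of 13 were named, 7 were tested and 0 were called. Their median log2 fold change was 0.01 for mutant against wild-type, 0.14 for heterozygous against wild-type and -0.05 for mutant against heterozygous. Prps2, which makes the ribose phosphate donor of the purine ring, averaged 86.1 ± 15.7 in mutant, 148.4 ± 18.3 in heterozygous and 105.8 ± 26.1 in wild-type colons. Its log2 fold change was -0.65 for mutant against heterozygous (SE 0.15, limma adjusted p = 0.348) and 0.42 for heterozygous against wild-type (limma adjusted p = 0.584). Paics, which acts between the Gart steps and Atic, had 0.13 for mutant against wild-type (limma adjusted p = 0.998).

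Of 9 other subunits of the complexes that hold Dld, 8 were named and tested and 0 were called. Their median log2 fold change was 0.02 for mutant against wild-type, -0.02 for heterozygous against wild-type and 0.07 for mutant against heterozygous. Dlst, the oxoglutarate dehydrogenase core, averaged 951.9 ± 104 in mutant, 816.1 ± 130 in heterozygous and 973.6 ± 128 in wild-type colons, with a log2 fold change of -0.27 for heterozygous against wild-type (limma adjusted p = 0.628). Bckdha, of the branched-chain complex, had 0.28 for mutant and 0.40 for heterozygous colons against the same wild-type arrays, with limma adjusted p of 0.998 and 0.695. Ogdh had 0.16 for mutant against wild-type (limma adjusted p = 0.998).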

How the data were processed

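Total RNA of the proximal colon, about 50 ng per mouse, was amplified with a NuGEN Ovation kit before biotin labelling, per the labels' protocols. The deposited values are intensities, 1 linear signal per probe set and array; GCOS, Affymetrix software, is named in the submitters' processing notes, without a version, and how it scaled the arrays is not stated there. Trimmed means were 500.1 to 500.2 in the 9 arrays, while median log2 signals spread over 0.294. Signals in the text are as deposited by the authors. For tests, 16 was added, log2 taken and quantile normalization applied, so that fold changes of dim probe sets are understated. The 64 control rows and probe sets under the 40th percentile of mean log2 signal were left out, leaving 13576 of 22626. Of those 22626, 20380 have 1 gene symbol, 691 several and 1555 none in the platform annotation, which can be old.

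limma 3.58.1 (lmFit, eBayes with trend; R 4.3.3) was fitted to all 9 arrays with genotype alone, with Benjamini-Hochberg adjustment over all 13576 probe sets in each comparison. The number of arrays limits the precision. Exact permutation tests used scipy 1.17.1 and figures matplotlib 3.10.9. The members and gene lists were chosen with earlier results of these data known.

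Named genes are all member probe sets, Shmt1, list members that pass plus up to 3 per list and comparison with the smallest p, the 2 genes most alike each member gene's brightest probe set, and markers of lists whose sums are printed. The sample titles name biological replicates, and the main fit did not pair samples by replicate number. Yet 5 of 9 same-numbered pairs had deviations correlated above 0.1, with a range of -0.059 to 0.463. Pairs with other numbers ranged from -0.507 to 0.275. Whether the numbers mark a shared order of handling is not stated. Alternatives were other normalizations, pseudocounts, filters and eBayes settings, array weights, the replicate block, only the compared genotypes, gene means, and fits without arrays.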

Additional observations from a re-analysis of the deposited data

How the results depend on the processing

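In 21 alternative settings, 66 fits with the main one, 0 probe sets of the enzymes passed in any comparison; the lowest limma adjusted p was 0.229 (Gart 1424436_at, 0.41 for mutant against wild-type with array weights). The replicate block, which fits a level for each array number, also gave 0 calls of these enzymes. Its lowest limma adjusted p for mutant against wild-type was 0.688 (Mthfd1 1436704_x_at, 0.58). Over all probe sets, calls for heterozygous against wild-type went to 134 with array weights and 3 without heterozygous replicate 3, against 0. For mutant against wild-type they were 9 with array weights, 9 without the arrays numbered 1 and 5 with the block, against 3. For mutant against heterozygous they were 8 with the block, 5 with only the 2 genotypes compared and 1 to 7 with 1 array left out, against 3. Leaving out 1 array moved Aldh1l1 to -0.60 without mutant replicate 1 (limma adjusted p = 1.0) and Mthfd1 1436704_x_at to 0.77 for heterozygous against wild-type without heterozygous replicate 3 (limma adjusted p = 0.565).

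Of 705 fold changes recomputed, 658 kept their direction and 47 changed sign, none of them called. The cause of the sign changes was not tested. Many of the 705 could not change. The eBayes settings, the filters and the replicate block leave a fold change as it is, as does the mean of a gene with 1 tested probe set. Leaving out arrays of the genotype not compared acts only through the normalization. The 658 are thus no measure of stability. With 1 array left out, the ranges of log2 fold changes that crossed 0 for mutant against wild-type were -0.01 to 0.20 (Mthfd1 1415916_a_at), -0.14 to 0.15 (Mthfd2 1419253_at), -0.16 to 0.03 (Mtrr), -0.11 to 0.06 (Gcsh) and -0.16 to 0.04 (Dld). For heterozygous against wild-type they were -0.23 to 0.02 (Mthfd1 1415916_a_at), -0.05 to 0.77 (Mthfd1 1436704_x_at), -0.31 to 0.19 (Mthfd1 1415917_at), -0.03 to 0.20 (Mtrr), -0.0 to 0.32 (Gart 1424436_at) and -0.06 to 0.11 (Gcsh). For mutant against heterozygous they were -0.19 to 0.63 (Mthfd1 1436704_x_at), -0.31 to 0.09 (Aldh1l1), -0.08 to 0.01 (Gcsh) and -0.04 to 0.19 (Dld). Without the 3 arrays numbered 1, mutant against wild-type was -0.03 for Mthfd2 1419253_at, 0.02 for Mthfd2 1419254_at, 0.01 for Gcsh and 0.02 for Dld. In the same setting, heterozygous against wild-type was -0.12 for Mthfd1 1436704_x_at, -0.11 for Mtrr and -0.05 for Gcsh, and mutant against heterozygous was 0.04 for Gart 1416283_at and 0.05 for Gcsh. Array weights gave -0.07 for Mthfd2 1419253_at in mutant against wild-type, and -0.28 for Mthfd1 1436704_x_at, -0.18 for Mtrr and -0.16 for Gcsh in heterozygous against wild-type. Median centring gave -0.0 for Gcsh in heterozygous against wild-type. The mean of a gene's probe sets, set against its brightest one, gave -0.03 for Mthfd2 and 0.04 for Gart in mutant against wild-type, 0.04 for Mthfd1 and 0.01 for Gart in heterozygous against wild-type, and 0.03 for Gart in mutant against heterozygous. Signal over background limits the 2 dim probe sets, which were not called when the filter was dropped.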
